A study of Mus musculus with 23 samples.

Results

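The cadherin and protocadherin superfamily was taken as every protein-coding gene whose mouse symbol is Cdh followed by a number, or starts with Pcdh. The rule found 92 members among the 45706 gene identifiers of the deposited count table. Of these, 23 were Cdh genes, 12 were protocadherins outside the clusters and 57 belonged to the Pcdha, Pcdhb and Pcdhg clusters on chromosome 18. The choice used names and biotypes and no measured value. Pcdhgb8 fits the symbol but is not annotated as protein-coding, so it was left out.

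Cadherins are calcium-dependent adhesion proteins that bind, mostly like to like, across the gap between neighbouring cells. Classical cadherins hold catenins with their cytoplasmic tails, which links the contact to actin, and in the hippocampus they join the presynaptic and postsynaptic membranes. Clustered protocadherins come from neighbouring arrays of variable exons, each with its own promoter, of which a neuron uses a few. In the alpha and gamma arrays the chosen variable exon is spliced to constant exons that all genes of the array share, and the genes at the end of these arrays, called C-type, are used more widely and differ in sequence from the rest.

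Polyadenylated RNA from mouse hippocampus was sequenced in 23 libraries that cover 3 neuron populations in 2 genotypes. CamK and Grik libraries are labelled as excitatory pyramidal cells and SST libraries as interneurons that express somatostatin, and the series' design text names excitatory neurons of CA1 and CA3 beside the SST population. The genotypes are SLM2 WT and SLM2 cKO, a conditional knockout of the splicing regulator SLM2, whose gene is Khdrbs3. There were 4 libraries each of WT CamK, cKO Grik, WT Grik, WT SST and cKO SST, and 3 of cKO CamK. The age, sex and strain of the mice, the Cre driver lines, the deleted exons, how the cells or their RNA were isolated, and whether libraries came from separate animals are not given in the sources used here. The p-values therefore measure the spread between these libraries, which may be technical.

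Each library held between 87612006 and 112993538 reads assigned to genes. Levels are given as CPM, reads per 1000000 gene reads after TMM scaling, and the interval of a level is an SD over libraries. The labels were checked against marker genes. The summed CA1 list was 1118 to 1531 CPM in WT CamK against 62.0 to 95.7 in WT Grik, and the summed CA3 list was 95.1 to 108 against 404 to 468 CPM. The summed list of 6 GABAergic and SST markers was 6053 to 7016 CPM in WT SST and 51.1 to 152 in WT CamK. Within that list Sst itself varied widely between the WT SST libraries, at 1720 CPM in SST WT 1, 159 in SST WT 2, 554 in SST WT 3 and 1557 in SST WT 5, while the other 5 markers summed to 5295 to 5894 CPM. In WT CamK and WT Grik Sst was 3.87 to 10.6 CPM. The summed list of 4 markers of dentate granule cells was 165 to 363 CPM in WT CamK and 179 to 191 in WT Grik against 35.4 to 47.5 in WT SST, with none of the 4 at 0. This list thus separates both pyramidal populations from SST, as do differences given below in either direction. Its part in them was not tested. Khdrbs3 was 278 ± 25.1 CPM in cKO CamK against 373 ± 27.0 in WT (log2 difference -0.42, adjusted p = 0.114 in edgeR's quasi-likelihood test with Benjamini-Hochberg adjustment over the 18823 genes tested), and 93.8 ± 10.5 in cKO SST against 130 ± 8.31 in WT (-0.47, adjusted p = 0.0309). In Grik it was 414 ± 18 CPM in the libraries labelled cKO against 336 ± 8.61 in WT (0.30, adjusted p = 0.499), the reverse direction to CamK and SST, without a call. Since the deleted exons are not given, these gene-level counts cannot settle the genotype. The cKO groups are therefore called by their labels throughout. The library CamK cKO 5 stood above the other CamK libraries in many members, and genotype counts are given with and without it.

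Most of the superfamily was detected in every population, and the 3 leading genes were the same in both pyramidal populations and, other than Pcdh1, different in SST. Of the 92 members, 82 reached a mean of 1 CPM in the WT libraries of at least 1 population, with 79 in CamK, 79 in Grik and 81 in SST. Cdh1, Cdh3, Cdh16, Cdh17, Cdh19, Cdh26, Pcdh12, Pcdha4, Pcdha8 and Pcdhb1 stayed under that level. For Pcdha4 the counting sees few bases, since 494 of its 5768 exonic bases are shared with no other gene on the strand. Per kilobase of exon that no other gene on the strand shares, the highest members in CamK were Pcdh1 at 23.3 CPM per kb, Pcdh20 at 17.9 and Pcdhgc5 at 16.8. The same genes led in Grik, where Pcdh20 held 38.7, Pcdh1 36.6 and Pcdhgc5 19.5 CPM per kb. In SST the order was Cdh13 at 23.3, then Pcdh9 and Pcdh1, both at 17.3 CPM per kb, then Pcdhac2 at 13.6 and Pcdhgc4 at 13.1. These are levels in bulk libraries, in which fewer cells of a type and less RNA per cell cannot be told apart.

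**Figure D1:**
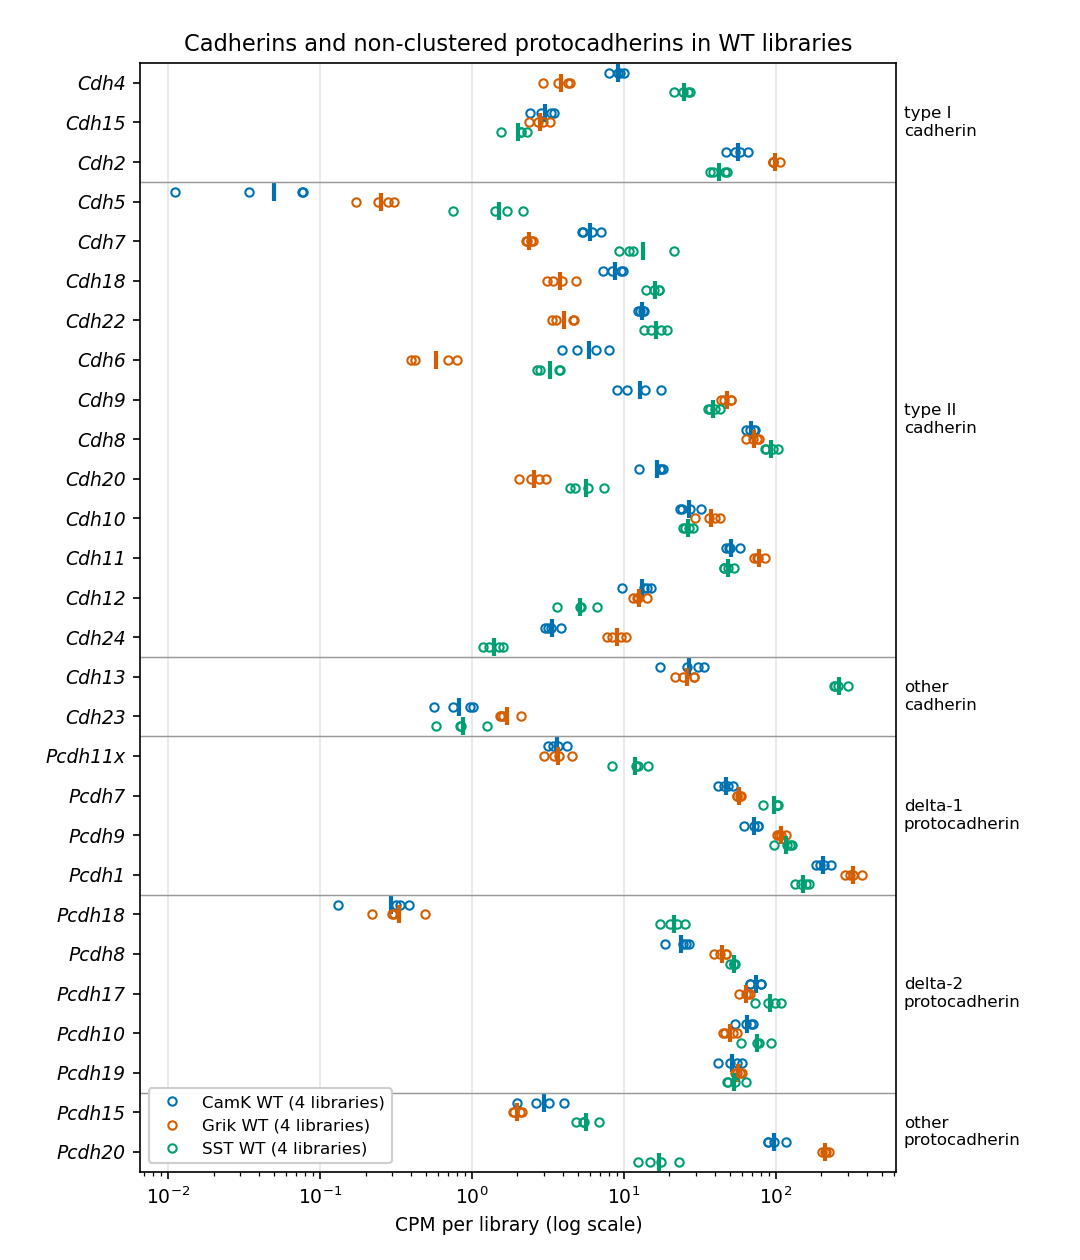
Level in CPM of cadherins and non-clustered protocadherins (rows, grouped by class) in each WT library, on a logarithmic axis. Rows are the members with a WT mean of at least 1 CPM in a population. Open points are libraries, coloured by population, and a mark gives the mean. Cdh13 and Pcdh18 stand out as high in SST, and Pcdh20 as high in CamK and Grik.

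The first question was how far the 3 populations differ in these adhesion genes in WT mice. Of the 92 members, 88 passed the filter on low counts and were tested, and a member was called at an adjusted p under 0.05 in the same test. Between CamK and Grik 46 of 88 members were called, 15 higher and 31 lower in CamK, where 42.0% of all genes tested were called, 20.9% higher and 21.1% lower. Between CamK and SST 63 were called, 23 higher and 40 lower in CamK, against 60.1% of all genes, 29.5% higher and 30.5% lower. Between Grik and SST 68 were called, 32 higher and 36 lower in Grik, against 57.3% of all genes, 28.1% higher and 29.2% lower. With all libraries, the shares of members called, 52.3%, 71.6% and 77.3%, lay above the background in all 3 comparisons, by margins for which no test was made. Without SST WT 2, the library lowest in Sst, 56 of 87 members were called between CamK and SST and 66 of 87 between Grik and SST. No share of all genes is given for that fit, so these counts are not read against a background.

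Differences were larger among the Cdh genes than over all genes. The median absolute log2 difference of the 21 tested Cdh genes was 1.26 between CamK and Grik, 1.16 between CamK and SST and 1.29 between Grik and SST. Over all genes tested the same medians were 0.34, 0.54 and 0.51. All 21 were called in at least 1 of the 3 comparisons and 9 of 21 in all 3, where 75.6% and 20.8% of all genes tested were, and each call of Cdh1, Cdh3, Cdh15 and Cdh26 was lost on leaving out 1 library or another. Of the 88 members 82 were called in at least 1 comparison and 22 in all 3. SST was called above both pyramidal populations in 27 members and below both in 20, against 21% and 20.4% of all genes. Grik was above both others in 15 and below both in 15, against 10.6% and 9.70% of all genes. CamK was below both in 16 and above both in 2, Cdh6 and Cdh20, against 11% and 11.2% of all genes. No test was made of these shares.

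Type I classical cadherins are the best known homophilic adhesion proteins, and of the 5 members Cdh2 and Cdh4 carried calls that held on leaving out each library. Cdh2, N-cadherin, the main cadherin of excitatory synapses, was highest in Grik. The WT libraries held 58.6, 65.4, 46.9 and 54.1 CPM in CamK, 96.6, 96.0, 107 and 96.4 in Grik and 37.0, 48.0, 38.6 and 46.3 in SST. Every Grik library lay above every other, whereas the ranges of CamK and SST overlapped. The log2 difference was -0.81 (SE 0.09, edgeR adjusted p = 6.39e-08) between CamK and Grik, 1.22 (SE 0.09, adjusted p = 1.50e-11) between Grik and SST and 0.41 (SE 0.09, adjusted p = 3.55e-04) between CamK and SST. Cdh4, R-cadherin, had another order. It was lowest in Grik at 3.71, 4.28, 4.42 and 2.96 CPM, intermediate in CamK at 7.96, 10.1, 9.20 and 9.51 and highest in SST at 21.5, 26.6, 27.5 and 24.4. The 3 groups did not overlap, and the largest difference, Grik minus SST, was -2.70 (SE 0.17, edgeR adjusted p = 1.01e-12). Cdh15, M-cadherin, known from muscle, was low everywhere, with 3.03 ± 0.483 CPM in CamK, 2.82 ± 0.374 in Grik and 2.02 ± 0.33 in SST. Its call between CamK and SST at 0.58 (SE 0.22, adjusted p = 0.0281) was lost when CamK WT 3, CamK WT 5 or SST WT 2 was left out, with adjusted p between 0.0622 and 0.0911. The epithelial cadherins Cdh1 and Cdh3 did not exceed 0.292 CPM in any WT library. The calls of Cdh1 were lost without CamK WT 3 or 5 or Grik WT 5 or 6 between CamK and Grik and without SST WT 5 between CamK and SST, and that of Cdh3 between Grik and SST without Grik WT 4 or SST WT 5. None of these calls was made by limma-voom.

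The 13 type II cadherins, the larger group of classical cadherins, divided the pyramidal populations. Between CamK and Grik 5 were higher and 6 lower in CamK, and against SST 4 were higher and 7 lower in CamK, and likewise 4 and 7 in Grik. Over all genes tested 20.9% were higher and 21.1% lower in CamK than in Grik, 29.5% and 30.5% in CamK than in SST, and 28.1% and 29.2% in Grik than in SST. Cdh6 and Cdh20 were the members called above both other populations in CamK. The CamK libraries held 3.95, 4.95, 8.01 and 6.57 CPM of Cdh6, the Grik libraries 0.401, 0.695, 0.424 and 0.797 and the SST libraries 2.83, 3.74, 3.83 and 2.67. Every CamK library lay above every SST library, the gap being from 3.83 to 3.95 CPM, and the Grik libraries were lowest. The log2 difference was 3.34 (SE 0.28, edgeR adjusted p = 6.39e-10) between CamK and Grik and 0.85 (SE 0.24, adjusted p = 0.00449) between CamK and SST. Cdh20 read 12.7, 18.1, 17.4 and 17.7 CPM in CamK, 2.04, 3.09, 2.46 and 2.75 in Grik and 4.42, 7.42, 5.84 and 4.81 in SST. No groups overlapped, and the difference was 2.67 (SE 0.20, edgeR adjusted p = 7.53e-11) against Grik and 1.55 (SE 0.19, adjusted p = 1.03e-07) against SST.

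Cdh9, which is known at mossy fibre synapses on CA3 neurons, had the opposite order to Cdh6 and Cdh20. It was 17.7, 13.9, 8.98 and 10.5 CPM in CamK, 50.8, 45.6, 51.1 and 43.7 in Grik and 35.8, 39.8, 37.1 and 43.2 in SST. The CamK libraries were lowest without overlap, at a log2 difference of -1.91 (SE 0.15, edgeR adjusted p = 6.81e-10) from Grik and -1.61 (SE 0.15, adjusted p = 3.02e-09) from SST. Grik and SST were not called apart, at 0.30 (SE 0.15, adjusted p = 0.0915). Cdh24, which binds alpha-catenin and beta-catenin, also peaked in Grik, with 7.81, 8.32, 10.3 and 9.60 CPM against 3.31, 3.18, 3.03 and 3.88 in CamK and 1.52, 1.62, 1.19 and 1.29 in SST. Its groups were separate in all 3 comparisons, and Grik minus SST was 2.68 (SE 0.19, edgeR adjusted p = 5.11e-12). Cdh10 and Cdh11 followed the same direction on a smaller scale. Cdh11 stood at 77.4 ± 5.57 CPM in Grik against 51.2 ± 5.05 in CamK and 48.5 ± 3.48 in SST (-0.60 for CamK minus Grik), and Cdh10 at 37.4 ± 5.81, 26.8 ± 4.16 and 26.4 ± 1.87 CPM (-0.48), with 1 Grik library inside the CamK range. In the cKO libraries the same differences were -0.29 for Cdh11 and -0.23 for Cdh10, and neither was called. The summed level of 4 oligodendrocyte markers was likewise higher in WT Grik, at 653 to 868 CPM, than in WT CamK at 142 to 215 and WT SST at 281 to 652. Astrocyte markers summed to 46.3 to 55.4 CPM in WT Grik against 8.67 to 18.6 in WT CamK. The sums were 9.41 to 15.1 against 0.587 to 1.88 CPM for oligodendrocyte precursors and 26.2 to 35.6 against 10.3 to 13.2 for mural cells. The part of these markers in the differences between CamK and Grik was not tested.

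In contrast, Cdh7, Cdh18 and Cdh22 were lowest in Grik and highest in SST. Cdh18 was 8.83 ± 1.18 CPM in CamK, 3.84 ± 0.763 in Grik and 16.1 ± 1.43 in SST. Its log2 difference for Grik minus SST was -2.07 (SE 0.13, edgeR adjusted p = 5.76e-13). Cdh7 was 6.0 ± 0.846, 2.39 ± 0.125 and 13.4 ± 5.57 CPM in the same order, with Grik minus SST at -2.48 (SE 0.25, adjusted p = 1.23e-08). Cdh22 was 13.1 ± 0.590, 4.07 ± 0.692 and 16.4 ± 2.57 CPM. The Grik libraries of Cdh22 lay below all CamK libraries at 1.69 (SE 0.12, adjusted p = 5.21e-11), whereas its call between CamK and SST (-0.32) was lost without CamK WT 4, SST WT 1 or SST WT 2, with adjusted p between 0.0565 and 0.0965.

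Cdh8 and Cdh12 separated SST from both pyramidal populations. Cdh8, among the most abundant type II cadherins, was 69.4 ± 4.31 CPM in CamK, 72.1 ± 6.50 in Grik and 93.1 ± 8.46 in SST, at -0.42 (SE 0.08, edgeR adjusted p = 9.69e-05) for CamK minus SST. Cdh12 went the other way, with 13.2 ± 2.43 and 12.6 ± 1.17 CPM in the pyramidal populations and 5.16 ± 1.23 in SST (1.35, SE 0.16, adjusted p = 6.16e-08). Cdh19 did not exceed 0.568 CPM in any WT library.

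Promoter sequences are shown for 4 members with clearly separate levels, chosen after their values were seen. These are Cdh6, Cdh20 and Cdh9, which divide the pyramidal populations, and Pcdh18, which is described further on. They are RefSeq's, build GRCm38.p6, 300 bases each from 250 before to 50 after the annotated start, written 5′ to 3′ on the gene's strand. Capitals mark the E-box CANNTG, the motif of basic helix-loop-helix factors, which reads the same on both strands. The regions are chr15:13173626-13173925 on the minus strand for Cdh6, chr15:16728665-16728964 on the plus strand for Cdh9, chr1:104768270-104768569 on the plus strand for Cdh20 and chr3:49757267-49757566 on the minus strand for Pcdh18.
Cdh6: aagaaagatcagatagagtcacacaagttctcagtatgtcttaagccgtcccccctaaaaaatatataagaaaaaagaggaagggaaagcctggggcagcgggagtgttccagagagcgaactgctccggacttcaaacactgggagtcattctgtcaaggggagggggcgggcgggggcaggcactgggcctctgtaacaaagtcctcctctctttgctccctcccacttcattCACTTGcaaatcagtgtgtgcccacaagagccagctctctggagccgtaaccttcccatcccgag
Cdh9: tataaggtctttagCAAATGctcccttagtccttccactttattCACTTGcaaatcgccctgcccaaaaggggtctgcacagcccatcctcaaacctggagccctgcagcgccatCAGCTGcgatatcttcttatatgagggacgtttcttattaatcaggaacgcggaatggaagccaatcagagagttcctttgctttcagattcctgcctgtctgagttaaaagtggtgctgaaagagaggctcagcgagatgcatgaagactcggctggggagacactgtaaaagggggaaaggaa
Cdh20: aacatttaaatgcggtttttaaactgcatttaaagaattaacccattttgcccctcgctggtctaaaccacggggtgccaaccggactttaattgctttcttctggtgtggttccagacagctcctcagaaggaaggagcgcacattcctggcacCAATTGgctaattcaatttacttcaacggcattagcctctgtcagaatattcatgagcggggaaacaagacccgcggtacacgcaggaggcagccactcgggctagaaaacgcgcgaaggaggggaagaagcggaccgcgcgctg
Pcdh18: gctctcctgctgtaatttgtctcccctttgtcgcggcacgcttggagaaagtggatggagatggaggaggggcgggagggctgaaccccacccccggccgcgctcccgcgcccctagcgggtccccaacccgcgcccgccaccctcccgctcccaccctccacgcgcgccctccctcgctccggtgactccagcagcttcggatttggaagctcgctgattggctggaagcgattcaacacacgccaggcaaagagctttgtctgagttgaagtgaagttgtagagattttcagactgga

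An E-box was found 3 times in the Cdh9 window, once each in those of Cdh6 and Cdh20, whereas the Pcdh18 window does not hold these letters. Of all 32851 RefSeq promoter windows of this length 72.3% hold at least 1 E-box, and 60% of the 25 windows read for Cdh and non-clustered protocadherin genes do, so its presence is common. The Cdh6 and Cdh9 windows, from genes on 1 chromosome with opposite levels in CamK and Grik, share a run of 15 bases, attcacttgcaaatc, with an E-box inside. It starts at position -18 from the annotated start of Cdh6 and at -209 in Cdh9, and 2 of the 32851 windows hold it on the strand read. The match is a description and no reading of the levels was drawn from it.

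Cdh5, VE-cadherin of endothelial junctions, is a type II cadherin best known from vessels. It was 0.0770, 0.0111, 0.0339 and 0.0766 CPM in CamK, 0.309, 0.174, 0.24 and 0.281 in Grik and 0.754, 2.17, 1.72 and 1.42 in SST. The SST libraries were highest, at -4.89 (SE 0.60, edgeR adjusted p = 1.90e-07) for CamK minus SST. The summed level of 4 other endothelial markers moved with it, at 0.757 to 1.27 CPM in WT CamK, 1.45 to 2.86 in WT Grik and 6.20 to 25.0 in WT SST, with none of the 4 at 0 in a group, and their part in the result was not tested. Pcdh12, a protocadherin also known from endothelium, had the same order, with 0.0139 CPM in CamK, 0.101 in Grik and 0.705 in SST.

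Among the other Cdh genes, Cdh13 carried the largest difference. Cdh13 is T-cadherin, a member without a cytoplasmic domain that is held to the membrane by a lipid anchor. The libraries held 26.3, 31.0, 17.4 and 33.8 CPM in CamK, 21.9, 24.6, 28.9 and 28.9 in Grik and 242, 257, 246 and 302 in SST. No pyramidal library came near the SST libraries, while CamK and Grik overlapped. CamK minus SST was -3.27 (SE 0.16, edgeR adjusted p = 4.19e-14) and Grik minus SST -3.33 (SE 0.16, adjusted p = 2.71e-14), and CamK minus Grik was 0.06 (SE 0.15, adjusted p = 0.797). The pyramidal level of Cdh13 was 10.4% of the SST level in CamK and 9.97% in Grik, whereas the interneuron marker Gad1 stood at 2.30% and 1.89%. Cdh23, which together with Pcdh15 forms the tip link of hair cells, was highest in Grik at 1.71 ± 0.277 CPM against 0.826 ± 0.208 in CamK and 0.880 ± 0.277 in SST (-1.04, SE 0.24, adjusted p = 9.95e-04 for CamK minus Grik, and -0.51 without a call in the cKO libraries). Pcdh15 itself was 2.98 ± 0.871 CPM in CamK, 1.99 ± 0.127 in Grik and 5.65 ± 0.847 in SST, so the order of the partners differed. Its call between CamK and Grik was lost without CamK WT 3, where the log2 difference was 0.39 against 0.58 with it. Cdh16 had no read in any WT library, and Cdh17 and Cdh26 did not exceed 0.234 CPM. The calls of Cdh26 against SST were lost without CamK WT 4 or 5 in CamK and without Grik WT 3, 4 or 5 in Grik.

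Delta protocadherins are 9 of the 12 non-clustered members, split into delta-1 genes, whose tails hold a phosphatase-binding motif, and delta-2 genes, some of which bind the WAVE actin regulator. All 4 delta-1 genes were called in at least 1 comparison, as were 75.6% of all genes tested. Pcdh1 was 186, 207, 232 and 196 CPM in CamK, 287, 324, 371 and 307 in Grik and 134, 167, 159 and 148 in SST. Grik lay above both others without overlap, at -0.65 (SE 0.09, edgeR adjusted p = 3.56e-06) for CamK minus Grik and 1.09 (SE 0.09, adjusted p = 3.06e-10) for Grik minus SST. Pcdh7 was higher in SST, with 47.2 ± 4.71 CPM in CamK, 57.6 ± 1.85 in Grik and 97.8 ± 10.3 in SST (-1.05, SE 0.09, adjusted p = 4.16e-10 for CamK minus SST). The call of its smaller difference between CamK and Grik, -0.29 (SE 0.09, adjusted p = 0.0136), was lost without CamK WT 4, where the difference was -0.23, and it was not called in the cKO libraries, at -0.00484. Pcdh9 was lower in CamK, at 72 ± 6.72 CPM, than in Grik at 108 ± 6.15 and SST at 118 ± 13.6, which were not called apart. Pcdh11x, on the X chromosome, was 3.63 ± 0.474 and 3.70 ± 0.657 CPM in the pyramidal populations and 11.8 ± 2.57 in SST (-1.70, SE 0.17, adjusted p = 3.15e-09 for CamK minus SST).

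Among delta-2 genes Pcdh18 showed the widest log2 difference of any tested member in both comparisons with SST. The libraries held 0.132, 0.388, 0.316 and 0.339 CPM in CamK, 0.298, 0.220, 0.309 and 0.492 in Grik and 17.5, 22.4, 20.3 and 25.5 in SST. Every WT pyramidal library stayed under 0.50 CPM and every WT SST library above 17 CPM, at -6.18 (SE 0.27, edgeR adjusted p = 1.58e-15) for CamK minus SST and -6.02 (SE 0.26, adjusted p = 1.64e-15) for Grik minus SST. Its pyramidal level was 1.37% of the SST level in CamK and 1.54% in Grik. The shares of the 6 GABAergic and SST markers ran from 0.294% (Lhx6) to 3.10% (Elfn1) in CamK. In Grik they ran from 0.302% (Lhx6) to 1.89% (Gad1). Those markers move with the result, and their part in it was not tested. Pcdh8, also called arcadlin and induced by neuronal activity, was 24.0 ± 3.65 CPM in CamK, 44.2 ± 3.86 in Grik and 52.9 ± 1.72 in SST. Its CamK level was lower than both (-0.88, SE 0.11, adjusted p = 2.91e-07 against Grik), while the call between Grik and SST (-0.26) was lost when SST WT 1, 2 or 5, Grik WT 3 or 6, or Grik cKO 1, 2 or 4 was left out, with adjusted p between 0.0504 and 0.147.

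The remaining delta-2 genes differed less. Pcdh17 was 73.8 ± 6.92 CPM in CamK, 63.9 ± 4.69 in Grik and 92.4 ± 14.8 in SST. The SST level was called above both (-0.53, SE 0.10, adjusted p = 5.65e-05 for Grik minus SST), although in the cKO libraries CamK minus SST was not called, at -0.15. Pcdh10 was 64.4 ± 7.55, 49.8 ± 5.02 and 76.0 ± 13.8 CPM, with Grik called below both others (-0.61, SE 0.11, adjusted p = 5.87e-05 for Grik minus SST), although the CamK and Grik ranges overlapped. Pcdh19, the X-linked gene of an epilepsy that affects mainly females, was the only non-clustered member called in no comparison. It stood at 52.0 ± 7.95 CPM in CamK, 57.0 ± 2.57 in Grik and 53.6 ± 7.32 in SST. Its log2 differences of -0.13, -0.04 and 0.09 had SEs of 0.12.

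Pcdh20, outside the delta groups, had the reverse pattern to Pcdh18. It was 117, 98.4, 89.0 and 89.7 CPM in CamK, 224, 201, 210.2 and 215 in Grik and 12.5, 17.5, 15.0 and 23.2 in SST. The 3 populations were separate in every library, with Grik highest and SST lowest. Grik minus SST was 3.64 (SE 0.17, edgeR adjusted p = 3.94e-14), CamK minus SST 2.53 (SE 0.17, adjusted p = 1.16e-11) and CamK minus Grik -1.11 (SE 0.16, adjusted p = 5.97e-06). The SST level was 11% of the mean pyramidal level, and the pyramidal markers Camk2a, Slc17a7 and Neurod6 stood in SST at 16.8%, 6.61% and 3.78% of theirs. Those shares were not tested as a part of the result.

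In the clusters, counts belong to the variable exons. Genes of the alpha array share their constant exons, and a read in an exon that several genes share is assigned to none of them by STAR's gene counting. The share of a gene's exonic bases that no other gene on its strand holds had a median of 46.4% in Pcdha, 55.4% in Pcdhg and 100% in Pcdhb, whose coding sequence lies in 1 exon. Of the 4732 exonic bases of Pcdhga10, 2613 are unshared on its own strand and none once both strands are read, since an antisense gene overlaps it. The strand setting of the counting is not given, so its counts are uncertain, like those of neighbours that are near copies of each other. The symbol Pcdha11 belongs to 2 gene identifiers. The value given below is that of ENSMUSG00000102206, which lies at RefSeq's Pcdha11, while ENSMUSG00000007440 lies at RefSeq's Pcdha10.

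The balance of the clusters differed between the populations, and their sum was higher in every WT Grik library than in every WT CamK library. Summed over 57 genes, the level was 334 ± 9.49 CPM in CamK, 386 ± 25.1 in Grik and 344 ± 37.3 in SST. Pcdhg made up 55.9% of the clustered reads in CamK, 58.4% in Grik and 42.1% in SST. Pcdhb made up 29.5%, 22.6% and 35.9%, and Pcdha 14.6%, 19.0% and 22%. In CPM the Pcdhb sum was 98.6 ± 3.63 in CamK, 86.9 ± 2.52 in Grik and 124 ± 15.3 in SST. The corresponding Pcdhg sums were 187 ± 4.34, 226 ± 18.7 and 145 ± 16.4.

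**Figure D2:**
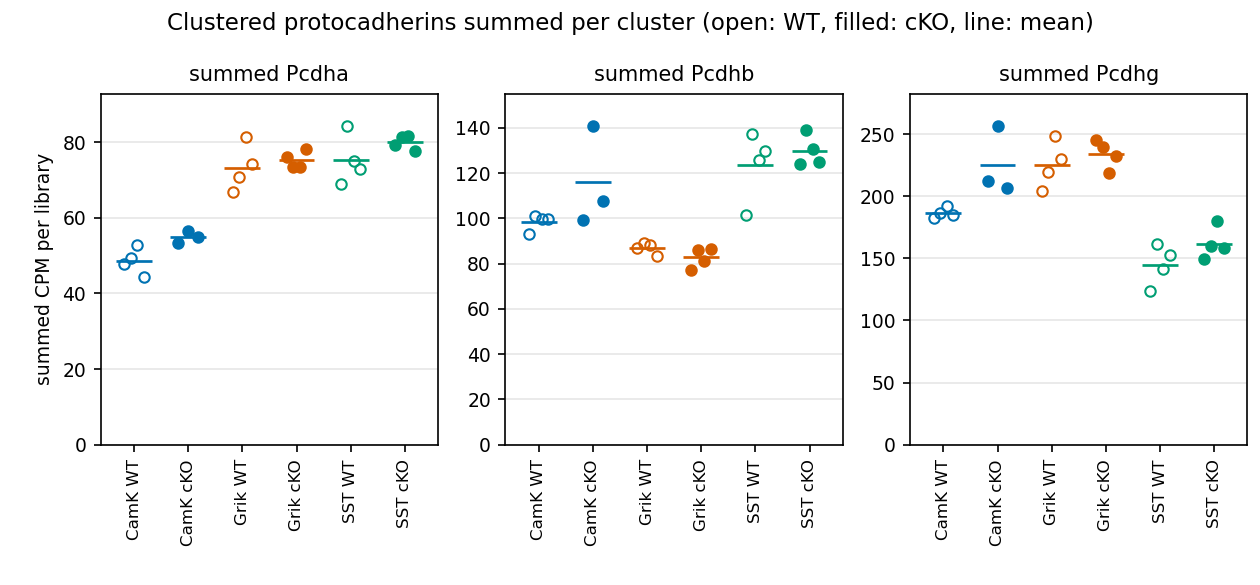
Summed level in CPM of the Pcdha, Pcdhb and Pcdhg genes in each library, by population and genotype, with a line at the group mean. The Pcdhg sum is lowest in the SST libraries, the Pcdhb sum has its highest group means there, and 1 cKO CamK library lies above the other 6 CamK libraries in the Pcdhb and Pcdhg sums.

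Genes of the 3 clusters moved in different directions. Against SST, Pcdhg genes were mostly higher in pyramidal cells, with 13 of 21 called higher and 3 lower in CamK and 19 higher and 1 lower in Grik, at median log2 differences of 0.45 and 0.73. Pcdhb genes were mostly lower, with 12 of 21 called lower and 1 higher in CamK and 13 lower and 2 higher in Grik, at medians of -0.35 and -0.50. Pcdha was divided, with 6 of 13 lower and 1 higher in CamK and 3 each way in Grik. Between CamK and Grik, no Pcdha or Pcdhg gene was called higher in CamK while 6 and 8 were lower, and 7 Pcdhb genes were higher and 2 lower. Of all genes tested 29.5% were higher and 30.5% lower in CamK than in SST, 28.1% and 29.2% in Grik than in SST, and 20.9% and 21.1% in CamK than in Grik. The median log2 difference over all genes tested was -0.02 for CamK minus SST, -0.03 for Grik minus SST and 0.01 for CamK minus Grik.

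**Figure D3:**
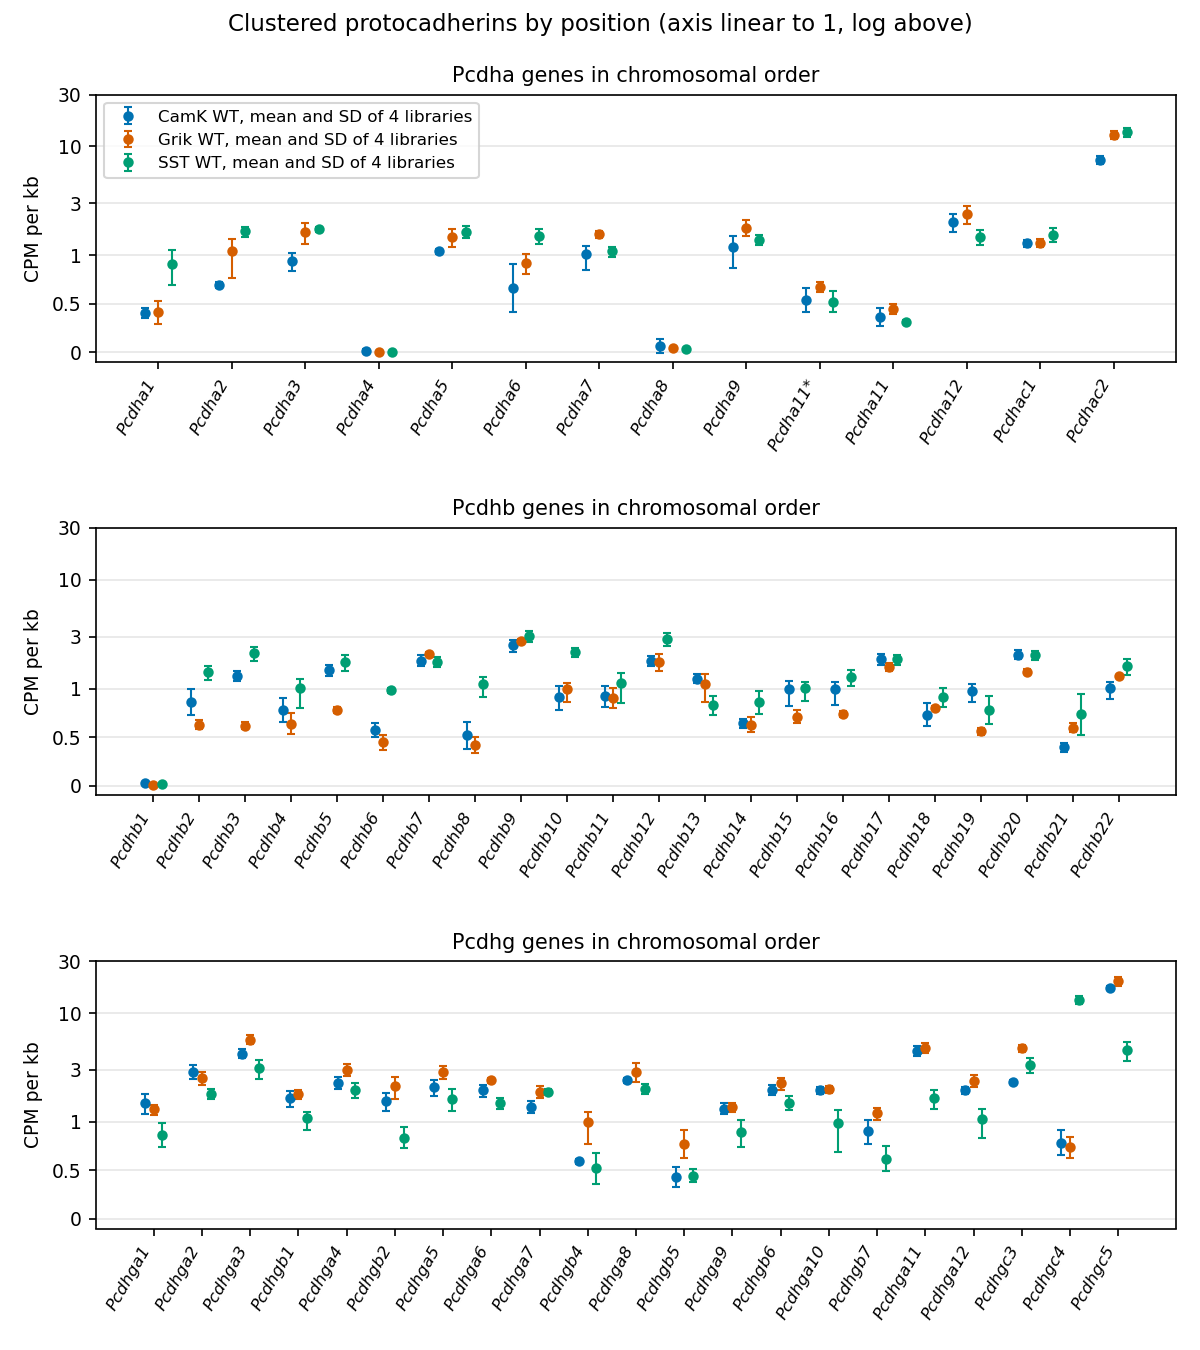
Mean WT level of each clustered protocadherin in its order along the chromosome, in CPM per kb of exon that no other gene on the strand shares. Points give the mean of each population and bars the SD over libraries, with panels for Pcdha, Pcdhb and Pcdhg. The axis is linear up to 1 CPM per kb and logarithmic above. SST lies above the pyramidal populations at Pcdha1, Pcdha2 and Pcdha6, at most Pcdhb genes and at Pcdhgc4, and below them at most Pcdhg genes and at Pcdhgc5.

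Pcdhga11, with the uncertainty of strand named above, and Pcdhb3 are examples of the opposite directions. Pcdhga11 was 12.7, 11.6, 10.3 and 13.1 CPM in CamK, 11.6, 14.4, 12.5 and 11.6 in Grik and 4.18, 5.51, 3.52 and 4.14 in SST. The pyramidal ranges overlapped and lay above SST, at 1.46 (SE 0.14, edgeR adjusted p = 2.83e-09) for CamK minus SST and 1.53 (SE 0.14, adjusted p = 1.14e-09) for Grik minus SST. Pcdhgb2 had the next largest difference in Grik, 1.34 (SE 0.17, adjusted p = 2.13e-07), and Pcdhga10, with the uncertainty named above, the next in CamK, 0.98. Pcdhb3 was 4.64, 4.43, 5.25 and 5.60 CPM in CamK, 2.42, 2.44, 2.38 and 2.13 in Grik and 6.47, 9.20, 7.61 and 8.66 in SST. The 3 groups were separate, with Grik lowest, at 1.09 (SE 0.15, edgeR adjusted p = 1.43e-06) for CamK minus Grik and -1.77 (SE 0.15, adjusted p = 1.50e-10) for Grik minus SST. Pcdhb5 and Pcdhb19 were also lower in Grik than in CamK (0.93 and 0.81), and Pcdhb8 and Pcdhb10 lower in CamK than in SST (-1.08 and -1.23). Against SST, Pcdhb8 and Pcdhb2 had the next largest differences in Grik after Pcdhb3 (-1.38 and -1.16).

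A few Pcdhb and Pcdhg genes went against their cluster. Pcdhb13 was higher in CamK than in SST (0.58, SE 0.14, adjusted p = 0.00102), and Pcdhga7 was lower (-0.47, SE 0.11, adjusted p = 9.95e-04, and -0.21 without a call in the cKO libraries). Pcdhb21 and Pcdhb22 were lower in CamK than in Grik (-0.60 and -0.37), and Pcdhb21 also lower than in SST (-0.90). The Pcdhb22 call between CamK and Grik was lost when CamK WT 4 or 5 or Grik WT 5 or 6 was left out, with adjusted p between 0.0522 and 0.107. Pcdhgb4 and Pcdhgb5 were lower in CamK than in Grik (-0.76 and -0.84), like the 6 other Pcdhg genes called there. In the cKO libraries Pcdhb21 was at 0.04, Pcdhb22 at -0.22 and Pcdhgb5 at -0.48 between CamK and Grik, none of them called.

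Within the alpha array the difference from SST varied with the place of the gene. Pcdha1, Pcdha2 and Pcdha6 were called higher in SST than in both pyramidal populations, whereas Pcdha3 and Pcdha5, which lie between them, were called lower in CamK than in both others. Pcdha1 was 1.0 ± 0.134 CPM in CamK, 1.02 ± 0.286 in Grik and 2.26 ± 0.529 in SST (-1.17, SE 0.21, adjusted p = 4.16e-05 for CamK minus SST). Pcdha2 and Pcdha6 differed by -1.26 and -1.18 in the same comparison. Near the end of the array Pcdha12 was higher in pyramidal cells, at 5.0 ± 0.915 CPM in CamK and 5.97 ± 1.11 in Grik against 3.65 ± 0.579 in SST (0.71, SE 0.15, adjusted p = 3.34e-04 for Grik minus SST). Its call between CamK and SST (0.46) was lost without CamK WT 4 or SST WT 1, with adjusted p between 0.0613 and 0.0654. Over the 11 tested Pcdha genes before the C-types, Spearman's rho between order on the chromosome and the log2 difference was 0.82 for CamK minus SST and 0.87 for Grik minus SST. Both use the same SST libraries, and the genes share libraries and depth, so the values are descriptions. For CamK minus Grik rho was 0.35 over the same 11 genes. The other arrays were read in the same way. For CamK minus SST and Grik minus SST, rho was 0.26 and 0.53 over 21 Pcdhb genes. Over the 18 Pcdhg genes before the C-types it was 0.13 and 0.41.

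Between the pyramidal populations, Pcdha2 and Pcdha3 had the largest alpha differences besides the C-types, -0.65 and -0.78 for CamK minus Grik, of which that of Pcdha3 was -0.28 without a call in the cKO libraries. Pcdha7 and Pcdha11 were higher in Grik than in SST (0.51 and 0.52) and Pcdha6 lower (-0.69). In the cKO libraries the Pcdha7 difference was -0.01 and its call was lost. The call of Pcdha11 was lost when Grik WT 4 or 5 or SST WT 1 or 2 was left out, with adjusted p between 0.0502 and 0.0763.

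The largest differences between interneurons and pyramidal cells within the clusters belonged to C-type genes. Pcdhgc4, known as the gamma isoform that cortical interneurons need to survive, was 2.58, 2.16, 3.13 and 3.05 CPM in CamK, 2.03, 2.62, 2.80 and 2.85 in Grik and 40.3, 49.2, 47.0 and 45.6 in SST. The WT pyramidal libraries overlapped each other and none of them passed 3.2 CPM. CamK minus SST was -4.06 (SE 0.13, edgeR adjusted p = 5.02e-18), Grik minus SST -4.14 (SE 0.13, adjusted p = 2.01e-18) and CamK minus Grik 0.08, which was not called. Pcdhgc5, its neighbour in the array, had the opposite order, with 74.4, 78.9, 81.7 and 75.2 CPM in CamK, 81.8, 85.6, 102 and 90.8 in Grik and 16.2, 23.6, 18.7 and 25.3 in SST. All SST libraries lay below all pyramidal libraries, at 1.89 (SE 0.12, edgeR adjusted p = 1.85e-12) for CamK minus SST and 2.10 (SE 0.12, adjusted p = 2.42e-13) for Grik minus SST.

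The ratio of Pcdhgc5 to Pcdhgc4 reads within a library restates the exchange free of library scaling. The WT CamK libraries gave ratios of 24.7 to 36.5, the WT Grik libraries 31.9 to 40.3 and the WT SST libraries 0.399 to 0.555. Pcdhgc4 made up 3.10% of the reads of the 3 gamma C-type genes in CamK, 2.37% in Grik and 58.7% in SST. The pyramidal level of Pcdhgc4 was 5.99% of the SST level in CamK and 5.65% in Grik, above the Gad1 shares of 2.30% and 1.89%, and the SST level of Pcdhgc5 was 25.0% of the mean pyramidal level, above the 16.8% of Camk2a. In the cKO libraries, which share no sample with the WT ones, the CamK ratios were 24.3 to 37.8, the Grik ratios 29.0 to 45.6 and the SST ratios 0.394 to 0.579.

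Pcdhgc3 and Pcdhac2 followed other orders. Pcdhgc3 was 8.0, 8.30, 7.53 and 7.76 CPM in CamK, 14.5, 16.3, 17.2 and 16.2 in Grik and 10.7, 13.8, 10.5 and 10.2 in SST. The populations were separate, with Grik highest and CamK lowest, at -1.02 (SE 0.10, edgeR adjusted p = 1.01e-08) for CamK minus Grik and 0.51 (SE 0.10, adjusted p = 1.05e-04) for Grik minus SST. Pcdhac2 was 22.3, 22.8, 25.2 and 20.9 CPM in CamK, 35.8, 38.4, 43.6 and 38.1 in Grik and 39.1, 46.7, 40.4 and 38.0 in SST. CamK lay below both others, at -0.77 (SE 0.07, edgeR adjusted p = 7.74e-09) against Grik and -0.85 (SE 0.07, adjusted p = 4.37e-10) against SST, while Grik and SST overlapped. Pcdhac1 was called in no comparison, with 3.32 ± 0.241 CPM in CamK, 3.34 ± 0.256 in Grik and 3.98 ± 0.577 in SST.

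**Figure D4:**
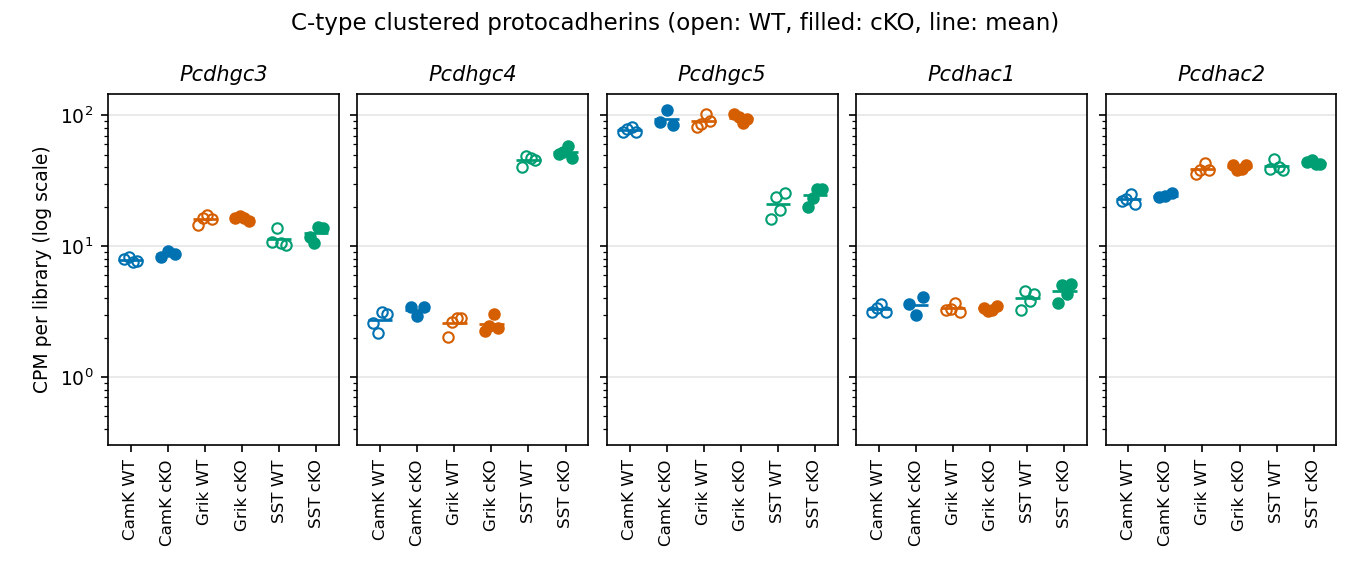
Level in CPM of the 5 C-type protocadherins in each library, by population and genotype, on a logarithmic axis, with a line at the group mean. Pcdhgc4 lies between 40.3 and 49.2 CPM in the WT SST libraries and between 2.03 and 3.13 in the WT pyramidal libraries, and Pcdhgc5 has the reverse order.

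Genes that work with these adhesion proteins were read from 4 lists, whose counts stand beside these shares of all genes tested: 20.9% higher and 21.1% lower in CamK than in Grik, 29.5% and 30.5% in CamK than in SST, and 28.1% and 29.2% in Grik than in SST. Of 13 catenins and adaptors, which tie cadherin tails to actin, 4 were higher and 4 lower in CamK than in Grik, 2 higher and 7 lower than in SST, and in Grik 4 were higher and 6 lower than in SST. Jup, plakoglobin, was 18.4 ± 0.912 CPM in CamK, 43.1 ± 4.45 in Grik and 20.7 ± 0.664 in SST (-1.22, SE 0.08, adjusted p = 1.78e-11 for CamK minus Grik). Ctnnb1, beta-catenin, had the order of Cdh2, with 537 ± 42.5, 732 ± 44.7 and 388 ± 14.5 CPM and Grik minus SST at 0.92 (SE 0.07, adjusted p = 3.31e-11). Magi1, a scaffold at cell contacts, and Vcl, vinculin, were lowest in Grik, Magi1 at 40.1 ± 6.07 CPM against 67.0 ± 13.7 in CamK and 101 ± 7.78 in SST. Ctnna2, the neuronal alpha-catenin, was 151 ± 5.54 CPM in CamK and 241 ± 12.9 in SST (-0.68, SE 0.07, adjusted p = 6.15e-09).

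Among 13 other genes of the superfamily, 1 was higher and 5 lower in CamK than in Grik, while 7 were higher and 5 lower in CamK than in SST, and 7 higher and 3 lower in Grik than in SST. Dchs1, a giant cadherin that pairs with Fat4, was 4.03 ± 0.560 CPM in CamK, 5.38 ± 0.617 in Grik and 34.3 ± 5.85 in SST (-3.09, SE 0.13, adjusted p = 3.02e-16 for CamK minus SST). Fat4, its partner, had the other order, at 18.1 ± 1.57, 11.8 ± 2.71 and 5.63 ± 1.03 CPM. Clstn2, a synaptic calsyntenin, was 108 ± 13.1, 262 ± 23.2 and 59.3 ± 15.0 CPM (2.15, SE 0.12, adjusted p = 9.03e-14 for Grik minus SST). Of 11 regulators of clustered protocadherin promoters, 1 was higher and 1 lower in CamK than in Grik, and 3 and 4 were higher in CamK and in Grik than in SST, with none lower. Ctcf, which binds these promoters and loops them to enhancers, was 99.8 ± 6.87 CPM in CamK, 85.0 ± 3.69 in Grik and 65.5 ± 3.64 in SST (0.61, SE 0.07, adjusted p = 7.49e-08 for CamK minus SST).

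All 7 genes of the list of kinases and WAVE subunits that protocadherins bind were higher in each pyramidal population than in SST, at median log2 differences of 1.08 in CamK and 1.04 in Grik, where 29.5% and 28.1% of all genes tested were higher. Ptk2b, the kinase Pyk2 that Pcdha and Pcdhg proteins inhibit, was 1597 ± 129 CPM in CamK, 2126 ± 53.5 in Grik and 152 ± 20 in SST (3.81, SE 0.13, adjusted p = 1.69e-17 for Grik minus SST). Wasf1, a WAVE subunit, was 749.7 ± 98.2, 768 ± 24.4 and 171 ± 19.3 CPM (2.14, SE 0.09, adjusted p = 3.82e-16 for CamK minus SST). Between the pyramidal populations 1 of the 7 was higher and 4 lower in CamK.

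The population differences were then read in the cKO libraries, which are other samples. Of the 46, 63 and 68 members called in the WT comparisons, 31, 53 and 61 were called in the same direction in the cKO libraries, and none in the opposite one. These are 67.4%, 84.1% and 89.7% of the WT calls and 77.5%, 88.3% and 87.1% of the 40, 60 and 70 cKO calls, where 35.7%, 56.4% and 57.9% of all genes tested were called. Over all genes called in WT the same shares were 69.1%, 81.5% and 88.3% of the WT calls and 81.5%, 86.8% and 87.3% of the cKO calls, so the members' shares lay near those of all genes. Without regard to the threshold, 43 of 46, 62 of 63 and 67 of 68 members had the same sign, against 97.5%, 98.2% and 99.3% of all genes called in WT. The named genes whose sign turned were Pcdhb21 and Cdh5 between CamK and Grik, at 0.04 and 0.09 in the cKO libraries, and Pcdha7 between Grik and SST, at -0.01.

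The second question was whether the members differ by genotype label inside each population. No member was called in CamK, Grik or SST by edgeR, where 0.0106% of all genes were called in each. At an unadjusted p under 0.05 there were 18 of 88 members in CamK, 4 in Grik and 2 in SST, against 7.05%, 4.88% and 5.85% of all genes tested. DESeq2 called 1 member, Cdh5 in CamK, at an adjusted p of 0.0374, where the other alternatives gave 0.0924 to 0.645. Among the members with at least 1 CPM, log2 differences lay between -0.09 and 0.58 in CamK, -0.55 and 0.33 in Grik and -0.22 and 0.33 in SST, with a median SE of 0.16, 0.15 and 0.15, so none reached an absolute value of 1. The difference of the genotype effect between populations was not called for any member either, where 0.00531%, 0.0% and 0.0106% of all genes were called between CamK and Grik, CamK and SST, and Grik and SST.

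The members leaned upward in the libraries labelled cKO in CamK, without any passing the test. The log2 difference was positive for 80 of 88 members there, at a median of 0.22, whereas 49.5% of all genes tested were positive. In SST 65 of 88 were positive at a median of 0.09, against 56% of all genes, and in Grik 47 of 88 at 0.02, against 50.8%. In CamK the lean covered 52 of 55 clustered genes, at a median of 0.25, and 28 of 33 others, at 0.12. Without the library cKO 5 it covered 47 of 56 clustered genes, at 0.13, and 24 of 33 others, at 0.13. The clustered sum was 323, 337, 345 and 329 CPM in the WT CamK libraries and 365, 455 and 369 in the cKO ones, so the groups did not overlap and 1 library, cKO 5, stood far above the rest. That library was the highest of the 7 for 52 of 88 members, 59.1%, against 19.6% of all genes. Without it 71 of 89 members were positive at a median of 0.13, and the unadjusted p was under 0.05 for 10, where 48% of all genes tested were positive and 5.30% had such a p. Leaving out each CamK library in turn gave 71 to 82 positive members. In SST, leaving out WT 1 reduced the count to 52, at a median of 0.04, where 55.7% of all genes were positive. In Grik, leaving out WT 3 gave 38 positive members at a median of -0.02, so the direction there turned.

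The mean of every astrocyte, oligodendrocyte and endothelial marker was also higher in the CamK libraries labelled cKO, as were 3 of 4 microglial means. So were all 3 mural and both oligodendrocyte precursor means. Neuronal lists leaned the same way, with 3 of 3 pyramidal, 5 of 6 GABAergic and SST, 3 of 4 other interneuron and 3 of 4 dentate granule means higher. The CA1 and CA3 lists had 2 of 4 and 1 of 4 means higher. The astrocyte and oligodendrocyte sums overlapped between the genotypes. The summed level of 5 astrocyte markers was 18.4 to 28.3 CPM in cKO against 8.67 to 18.6 in WT, that of 4 oligodendrocyte markers 214 to 271 against 142 to 215, and that of 4 endothelial markers 1.67 to 3.43 against 0.757 to 1.27, and their part in the lean was not tested. In Grik, where the members showed little lean, the oligodendrocyte sum was 729 to 1012 CPM in the libraries labelled cKO against 653 to 868 in WT, the astrocyte sum 45.1 to 66.5 against 46.3 to 55.4 and the sum of 2 markers of oligodendrocyte precursors 13.2 to 20.2 against 9.41 to 15.1. In SST all 5 astrocyte, all 4 oligodendrocyte and all 4 microglial markers had higher means in cKO, with sums of 43.8 to 124 CPM against 49.1 to 93.8, 238 to 994 against 281 to 652 and 6.11 to 18.4 against 5.66 to 7.13, so the ranges overlapped. All 4 CA1 and all 4 dentate granule markers also had higher means there, against 2 of 4 endothelial and 1 of 3 mural ones. The lowest unadjusted p in CamK belonged to Cdh5, at 0.10, 0.439 and 0.380 CPM in cKO against 0.0770, 0.0111, 0.0339 and 0.0766 in WT. The groups did not overlap, and the log2 difference of 2.59 (SE 0.66, edgeR adjusted p = 0.4) did not pass. Pcdhgb1 was 5.17, 7.89 and 6.13 CPM against 4.68, 3.20, 4.86 and 4.57 in WT (0.56, SE 0.16, adjusted p = 0.473), and Pcdhb2 was 2.98, 4.85 and 3.03 against 2.20, 2.61, 2.89 and 2.03 CPM (0.57, SE 0.17, adjusted p = 0.511). For both genes every cKO library lay above every WT library, and neither passed.

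In Grik the lowest unadjusted p belonged to Pcdhb6, at 1.15, 1.24, 1.13 and 1.05 CPM in the libraries labelled cKO against 1.55, 2.11, 1.59 and 1.45 in WT. All cKO libraries lay below all WT libraries, and the log2 difference of -0.55 (SE 0.17, edgeR adjusted p = 0.82) did not pass. Pcdhga7 and Pcdha7 followed at 0.27 (SE 0.11, adjusted p = 0.968) and -0.32 (SE 0.15, adjusted p = 0.992). In SST the lowest p values were those of Pcdhb10, Pcdhga6 and Pcdhgc5, at 0.33 (SE 0.13, adjusted p = 0.833), 0.30 (SE 0.14, adjusted p = 0.833) and 0.23 (SE 0.12, adjusted p = 0.839). For differences of the genotype effect, Pcdhb6 came first between CamK and Grik at 0.90 (SE 0.24, edgeR adjusted p = 0.57) and between Grik and SST at -0.62 (SE 0.23, adjusted p = 1), and Cdh5 between CamK and SST at 2.54 (SE 0.80, adjusted p = 0.597), none of which passed. Of the other genes nearest to passing, Pcdhb2 and Pcdh11x differed by 0.67 and 0.70 between CamK and Grik, Pcdh7 by 0.36 between CamK and SST (Cdh3, with few reads, also ranked there), and Pcdha7 and Pcdhb15 by -0.53 and -0.50 between Grik and SST. None of the genes in the 4 lists of partners was called between genotypes in any population.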

How the data were processed

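Libraries were polyadenylated RNA of mouse hippocampus, 23 in 6 groups of population and genotype. Gene-level read counts, not normalized, were used as deposited; the authors used Trimmomatic and STAR with GRCm38, per the submitters' processing notes. Versions, annotation release and strand setting are not given in the sources used here. Rows that name no gene held 12.4% to 18.4% of all reads and stayed out of library sizes and tests. This share includes the ambiguous reads, which were 0.961% to 1.11% of all reads. Of the 45706 identifiers, 45143 matched GENCODE M21, which gave symbols, biotypes and shared exons.

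Counts were filtered with filterByExpr, scaled by TMM and fitted over all 23 libraries with edgeR 4.0.16 (robust quasi-likelihood test, 1 coefficient per group, no covariate, residual df 17, biological coefficient of variation 16.3%) in R 4.3.3, with Benjamini-Hochberg adjustment over 18823 genes and a threshold of 0.05. The self-test ran on simulated counts. DESeq2 1.42.0, limma 3.58.1 (voom with quality weights), RLE scaling, filters of at least 1 CPM in 3 libraries or of 1 read, fits to the compared groups, a replicate-number block and each library left out were the alternatives. No 2 libraries of a group agreed within sampling noise (chi-square per degree of freedom 8.79 to 215).

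Every Cdh and non-clustered Pcdh gene was named. Per cluster and comparison up to 3 higher and 3 lower genes were named, by size of the log2 difference among called genes with 1 CPM in the higher group and groups that do not overlap, plus the 5 C-type genes. For genotypes, where none was called, the 3 lowest unadjusted p were named. Up to 2 called genes each way were named per partner list. Members and lists were chosen with earlier results of these data known.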

Additional observations from a re-analysis of the deposited data

Results flagged for a closer look

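A library was listed where its gap to the nearest library of its group of 4, divided by the group's range, exceeded Dixon's critical value for 4 libraries. The 64 named members and the sums of 9 classes were examined in the 5 groups of 4 libraries, and of these 365 combinations 19 were listed, 18 of members and 1 of a class sum, and chance gives about 1 in 20, here 18.25, so the number itself is close to that of chance. Groups of 3 were not examined.

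Among the cadherins, Grik WT 5 was high for Cdh2 at 107 CPM (others 96.0 to 96.6), for the summed type I cadherins at 114 CPM (others near 103) and for Cdh23 at 2.12 CPM (1.54 to 1.62). The Cdh20 level of CamK WT 2 was low at 12.7 CPM (17.4 to 18.1). Cdh26 was at 0 in 3 of 4 libraries of WT Grik and of cKO Grik, with 0.0820 CPM in Grik WT 6 and 0.0224 in Grik cKO 2. The Cdh5 level of Grik cKO 2 was 0.728 CPM (0.115 to 0.161), and that group's summed endothelial markers ranged from 1.34 to 6.23 CPM. Pcdh7 was low in SST WT 1 at 82.5 CPM (102 to 105).

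In the alpha cluster Pcdha1 was low in SST cKO 7 at 1.73 CPM (2.72 to 2.85), Pcdha12 high in SST cKO 5 at 4.86 (3.30 to 3.53) and Pcdha7 high in Grik cKO 3 at 3.14 (2.51 to 2.56). In the beta cluster Pcdhb10 was high in Grik cKO 2 at 3.38 CPM (2.58 to 2.65), Pcdhb13 low in Grik WT 6 at 2.77 (4.44 to 4.75) and Pcdhb15 low in Grik cKO 4 at 1.43 (1.62 to 1.66). Pcdhb6 was high in SST cKO 3 at 4.94 CPM (3.43 to 3.64) and Pcdhb8 in SST cKO 4 at 5.22 (3.60 to 3.83). In the gamma cluster Pcdhga6 was high in Grik cKO 4 at 7.85 CPM (5.60 to 5.62), Pcdhgb5 low in Grik cKO 3 at 3.02 (4.02 to 4.18) and Pcdhgc3 high in SST WT 2 at 13.8 (10.2 to 10.7).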

How the results depend on the processing

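The counts of called members moved little. Between CamK and Grik the 46 calls became 40 to 49 under the alternatives (42 with the replicate block) and 39 to 48 on leaving out 1 library. Between CamK and SST the 63 became 58 to 64 (61 with the block) and 56 to 64, and between Grik and SST the 68 became 64 to 71 (64 with the block) and 63 to 70. The genotype comparisons gave 0 calls throughout, other than the 1 call in CamK with DESeq2, Cdh5. The cKO libraries in place of WT, an alternative chosen after seeing the data, turned the log2 difference of Cdh5 between CamK and Grik to 0.0941, that of Pcdhb21 to 0.0418 and that of Pcdha7 between Grik and SST to -0.0143, and the cause was not tested. Of 116 named population results 91 kept their direction and side of the threshold in every alternative, and 13 lost the call on leaving out 1 library. With the cKO libraries the calls of Cdh10, Cdh11, Cdh23, Pcdh7, Pcdh12, Pcdha3, Pcdhb22 and Pcdhgb5 between CamK and Grik, of Cdh15, Cdh22, Pcdh17 and Pcdhga7 between CamK and SST and of Pcdh8 between Grik and SST were also lost. Libraries with the same replicate number showed no clear shared deviation, with correlations of -0.0999 to 0.129 over the 6 comparisons. With 2 or 3 shared numbers per comparison, these correlations cannot decide whether the numbers pair the samples. Under the block Cdh1 between CamK and Grik, Cdh6 (0.56) and Cdh22 between CamK and SST, and Cdh3, Pcdh8, Pcdha7 and Pcdha11 between Grik and SST lost their calls. Of the members under 1 CPM, Cdh1, Cdh3 and Cdh26 lost their calls on leaving out 1 library, while Pcdh12 was called in all 3 comparisons.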
